A study of Arabidopsis thaliana with 3 samples.

Results

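Metallothioneins are small proteins rich in cysteine whose thiol groups bind copper, zinc and other metal ions. Arabidopsis thaliana has 4 types, and 7 genes of the family were examined here by their locus identifiers: MT1A (AT1G07600), MT1C (AT1G07610), MT2A (AT3G09390), MT2B (AT5G02380), MT3 (AT3G15353), MT4A (AT2G42000) and MT4B (AT2G23240). They are 7 of the 26810 genes listed in any library of the study. Types 1, 2 and 3 are known from vegetative tissues, with MT1A and MT2B in the phloem and MT2A and MT3 in mesophyll and young tissues, and type 4 is known from seeds. The family was picked with its values in these libraries in view, among them the opposite placing of MT2B and MT3. The comparison of assays below is therefore a description, and no test was made on it.

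The libraries came from buds of immature inflorescences of untreated dcl1-7 plants about 4 weeks old that were kept on a cycle of 16 h light and 8 h dark. dcl1-7 is a mutant allele of DCL1, which encodes a Dicer enzyme of microRNA processing, and it was present in every library. PolyA RNA was sequenced by RNA-seq in 2 libraries labelled as replicates and by GMUCT in 1 library, with strand-specific reads of 50 nt. GMUCT (global mapping of uncapped transcripts) captures the 5′ ends of polyA RNAs without a cap, that is, of decapped or cleaved transcripts. Values are in RPKM, a read number divided by gene length and library size. The GMUCT values have no replicate, and the labels do not say whether the RNA-seq replicates are separate plants, so SDs measure only the spread between these samples.

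The libraries listed between 22824 and 26731 genes. The steps between low values correspond to a depth of about 18200000 reads in RNA-seq library 1, 8580000 in library 2 and 19400000 in GMUCT. These depths, and the read numbers given below from them, are rough. Only 37.1%, 34.9% and 36.3% of the low values lay within 0.1 of a whole read, against 20% from chance. DCL1 itself was listed at 16.04, 15.18 and 7.57 RPKM in these 3 libraries, which does not check the genotype label, since other genotypes were not analysed here. The floral genes AP1, AP3, PI, AG, SEP3 and LFY, markers of the labelled tissue, had 1.00 to 141.16 RPKM in RNA-seq. Of 6 markers of maturing seed 3 were listed in RNA-seq, at 0.24 RPKM at most, and of 3 root markers 1 was, at 0.50 RPKM at most. The 4 phloem markers were present, for example SUC2, the sucrose transporter of companion cells, at 35.84 and 39.19 RPKM.

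The coding sequences show what the family has in common and how the types differ. They are printed 5′ to 3′ for 1 or 2 genes of each type, from the RefSeq annotation of build TAIR10.1, with the cysteine codons in capitals. MT1C lies on the plus strand of chromosome 1, MT2A and MT3 on the minus strand of chromosome 3, MT2B on the minus strand of chromosome 5 and MT4B on the minus strand of chromosome 2.
MT1C: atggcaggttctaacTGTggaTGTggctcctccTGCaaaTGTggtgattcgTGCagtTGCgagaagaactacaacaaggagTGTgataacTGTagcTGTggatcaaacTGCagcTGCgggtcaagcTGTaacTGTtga
MT2A: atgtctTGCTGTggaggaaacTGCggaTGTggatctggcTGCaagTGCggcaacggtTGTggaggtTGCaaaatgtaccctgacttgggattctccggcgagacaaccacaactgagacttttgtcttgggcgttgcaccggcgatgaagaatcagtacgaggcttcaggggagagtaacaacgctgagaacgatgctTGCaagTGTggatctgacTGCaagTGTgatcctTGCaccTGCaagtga
MT2B: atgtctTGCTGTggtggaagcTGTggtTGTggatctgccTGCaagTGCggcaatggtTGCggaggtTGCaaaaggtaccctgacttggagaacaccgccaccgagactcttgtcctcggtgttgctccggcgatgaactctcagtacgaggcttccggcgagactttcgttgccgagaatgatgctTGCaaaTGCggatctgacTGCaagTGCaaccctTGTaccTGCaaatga
MT3: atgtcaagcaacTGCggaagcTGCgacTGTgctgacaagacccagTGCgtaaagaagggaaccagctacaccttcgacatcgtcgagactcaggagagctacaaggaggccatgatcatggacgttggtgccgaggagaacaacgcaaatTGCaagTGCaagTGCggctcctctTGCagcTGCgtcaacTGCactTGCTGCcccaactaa
MT4B: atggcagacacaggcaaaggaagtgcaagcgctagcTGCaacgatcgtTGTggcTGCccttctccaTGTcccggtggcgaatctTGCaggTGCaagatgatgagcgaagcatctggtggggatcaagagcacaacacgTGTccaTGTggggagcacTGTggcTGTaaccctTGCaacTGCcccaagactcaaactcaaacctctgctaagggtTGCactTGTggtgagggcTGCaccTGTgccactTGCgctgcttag

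MT1A and MT1C encode 45 residues each, of which 13 are cysteines (28.9%). Their cysteines sit in groups of 6 and 7 that are separated by only 7 codons. MT2A (81 codons) and MT2B (77 codons) have 14 cysteines each, 8 before and 6 after a stretch of 43 and 39 codons without any. MT3, with 69 codons, has its cysteines the other way round, 4 near the start and 8 near the end, separated by 34 codons. MT4A and MT4B encode 84 and 85 residues with 17 cysteines each, and their longest stretch without one spans 14 and 15 codons. The Cys-X-Cys spacing, in which a single residue lies between cysteines, occurs between 5 and 7 times in every one of the 7 frames, whereas adjacent cysteines occur once each in MT2A, MT2B and MT3 and in none of the others.

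**Figure D1:**
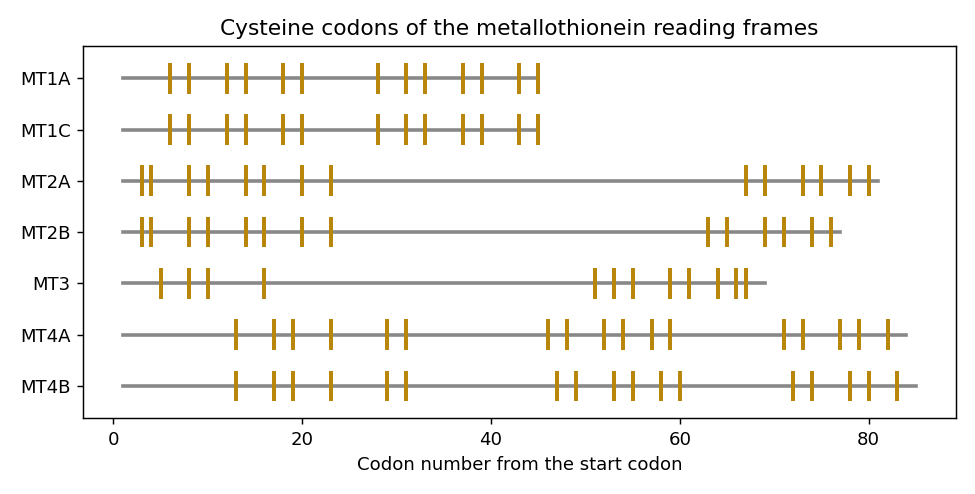
Cysteine codons (vertical ticks) along the reading frame of each of the 7 metallothionein genes, with the codon number from the start codon on the x axis and the whole frame as a grey line. The ticks of MT2A and MT2B lie at both ends with 43 and 39 codons between them, and the 13 ticks each of MT1A and MT1C are spread along the 45 codons with at most 7 codons between neighbours.

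Within a type the genes are close relatives. The translated MT2A and MT2B are identical at 65 of 81 aligned positions (80.2%), MT4A and MT4B at 71 of 85 (83.5%), and MT1A and MT1C at 43 of 45 (95.6%). MT2A and MT3 share 26 of 88 aligned positions (29.5%). The first spliced transcript model of each gene was searched. None of the 50-base stretches of MT1C, MT2A, MT2B, MT3, MT4A or MT4B occurred elsewhere in the genome or in another metallothionein transcript. Error-free reads of this length from those 6 models can therefore be told apart. The model holds 255 of 609 exon bases for MT4A, 580 of 654 for MT3 and 595 of 599 for MT4B, and their other exon bases were not checked. For MT1A, 37 of 89 such stretches (41.6%) also occurred in the spliced transcript of MT1B (AT5G56795), a related gene.

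Of the 6 genes other than MT1A, whose reads overlap another gene and are treated below, MT2B, MT2A and MT3 had by far the highest values. MT2B had 2446.1 and 2771.21 RPKM in RNA-seq libraries 1 and 2, a mean of 2609 ± 229.9 (SD, n = 2), and 342.03 RPKM in GMUCT. It ranked 7 among all listed genes in both RNA-seq libraries and 188 in GMUCT, so its GMUCT value lies far under both RNA-seq values. MT2A, the gene closest to it in sequence, had 1476.77 and 1447.88 RPKM (1462 ± 20.43, SD, n = 2) by RNA-seq and 2277.29 by GMUCT. It kept a place near the top in every library, with ranks of 13, 14 and 14. MT3 had 765.26 and 903.02 RPKM (834.1 ± 97.41, SD, n = 2) by RNA-seq but 3438.39 RPKM by GMUCT, where only 3 genes were listed higher. The order in both RNA-seq libraries was MT2B, MT2A, MT3, with gaps larger than the spread between the libraries, and in GMUCT it was MT3, MT2A, MT2B. In bulk tissue, fewer cells of a type and less RNA per cell cannot be told apart, and this holds for all levels here.

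**Figure D2:**
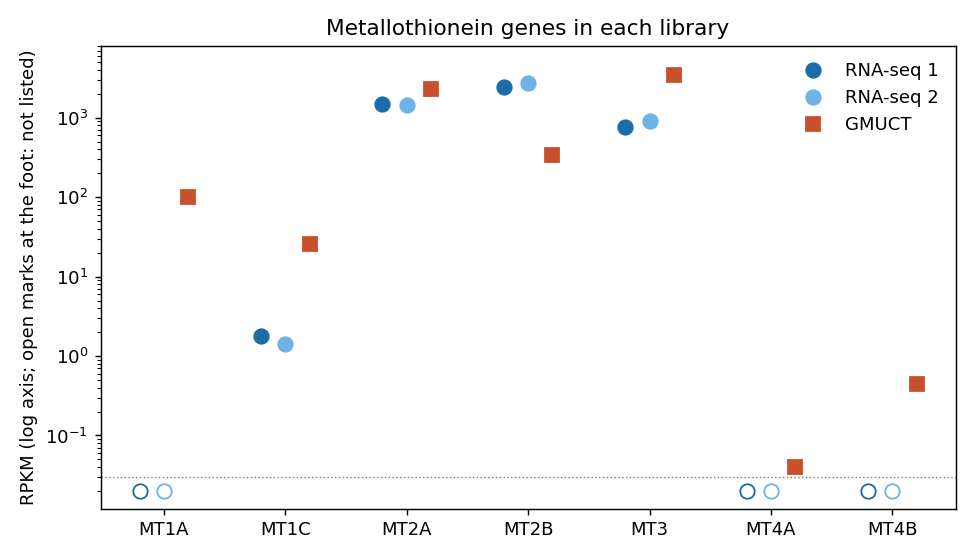
RPKM (log axis) of the 7 metallothionein genes in RNA-seq library 1, RNA-seq library 2 and the GMUCT library, 1 mark per library, with open marks at the foot where a table does not list the gene. The RNA-seq marks of MT2B lie above its GMUCT mark at 342.03 RPKM, and those of MT1C, MT2A and MT3 lie below theirs.

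The makeup of the summed metallothionein signal differed between the assays. The sums and shares lack MT1A in RNA-seq, where it was not listed and was taken as 0, and hold it at 1.62% in GMUCT. The sum came to 4690, 5124 and 6184 RPKM in RNA-seq libraries 1 and 2 and GMUCT, or 0.984%, 1.04% and 1.13% of all RPKM in each library. MT2B made up 52.2% and 54.1% of the listed sum in RNA-seq and 5.53% in GMUCT. The share of MT3 was 16.3% and 17.6% in RNA-seq and 55.6% in GMUCT, and that of MT2A was 31.5%, 28.3% and 36.8%.

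MT2B had 7.15 and 8.10 times as much signal in RNA-seq libraries 1 and 2 as in GMUCT. The mean log2 ratio of GMUCT to RNA-seq was -2.93, on the log2(RPKM + 0.5) scale used for all ratios here, while the RNA-seq libraries differed from each other by 0.18. MT3 was 4.49 and 3.81 times as high in GMUCT as in each RNA-seq library (log2 ratio 2.05), against a difference of 0.24 between those libraries. MT2A was 1.54 and 1.57 times as high in GMUCT (0.64), a smaller distance in the same direction as MT3 and under 2-fold. For each of the 3 genes the GMUCT value lay outside the range of the RNA-seq values by more than those differed from each other.

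Ratios between metallothionein genes within a library do not depend on how the libraries were scaled. MT2A was 0.604 and 0.522 times MT2B in RNA-seq and 6.66 times MT2B in GMUCT, so the log2 ratio between these close relatives differed by 3.57 between the assays. The log2 ratio of MT3 to MT2B was -1.68 and -1.62 in RNA-seq and 3.33 in GMUCT, and on the log2(RPKM + 0.5) scale the assays differed by 4.97. MT3 and MT2A lay closer to each other, with MT3 at 0.518 and 0.624 times MT2A in RNA-seq and 1.51 times in GMUCT.

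MT1C was low in RNA-seq and higher in the GMUCT library. It had 1.8 and 1.4 RPKM in RNA-seq (1.6 ± 0.2828, SD, n = 2), about 18.9 and 6.93 reads, and 25.52 RPKM in GMUCT, about 285 reads. GMUCT was thus 14.2 and 18.2 times as high as the RNA-seq libraries (log2 ratio 3.64).

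MT1A was listed in neither RNA-seq table and had 99.93 RPKM in GMUCT, about 267 reads, so no ratio is given. Its listing cannot be read as absence of the mRNA. In the TAIR10.1 annotation the MT1A model consists of its 138 coding bases, and 100% of them lie in exons of AT1G07590 on the same strand. They fall in the first and second exons of AT1G07590, before its coding sequence, and the intron of MT1A is also an intron of that gene. AT1G07590, annotated as a tetratricopeptide repeat protein, was listed at 51.36 and 54.18 RPKM by RNA-seq and at 57.53 by GMUCT. Reads of MT1A and of the leader of AT1G07590 cannot be told apart by place or strand, and how the authors assigned them is not given in the sources used here.

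**Figure D3:**
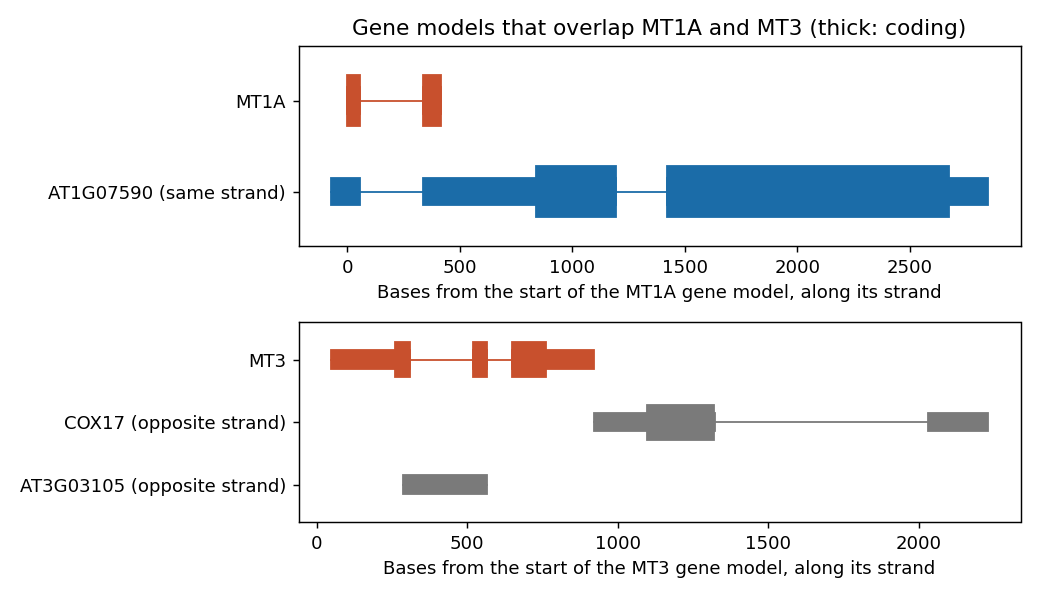
Models of the genes that overlap MT1A (top) and MT3 (bottom), drawn to scale from TAIR10.1 with the distance in bases from the start of the gene along its strand, exons as boxes and coding parts thicker. The first transcript model of each gene is drawn, so that of MT3 begins 49 bases into the gene. It ends at base 919, just before the drawn COX17 model at base 921, since the overlap of these genes lies outside their first models. Both MT1A exons lie inside the noncoding leader of AT1G07590.

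MT3 overlaps genes only on the opposite strand. COX17, a copper chaperone for cytochrome oxidase in mitochondria, meets it tail to tail with 24 shared bases, and the noncoding gene AT3G03105 covers 278 bases of its span. Of the MT3 exon length 14.4% lies in such exons. COX17 was listed at 3.75 and 3.35 RPKM by RNA-seq and at 5.05 by GMUCT, small against MT3 in each library. The reads were strand-specific, but the use of strand in counting is not given in the sources used here. No annotated gene overlapped MT1C, MT2A, MT2B, MT4A or MT4B.

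The seed-type genes were at the bottom of the range. MT4A was listed only in GMUCT, at 0.04 RPKM, less than the value of 1 read at the estimated depth. MT4B was also listed only in GMUCT, at 0.44 RPKM, about 5.11 reads. The markers of maturing seed were similarly low, with between 0.15 and 1.29 RPKM in GMUCT, among them the storage proteins SESA1 (0.52 RPKM) and CRA1 (0.82 RPKM) and the oil body protein OLEO1 (0.72 RPKM).

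A size rule places these genes among the 20214 genes with a mean of at least 1 RPKM over the assays. It asks that GMUCT be at least 2-fold above, or at least 2-fold below, both RNA-seq libraries. Of the 7 genes 5 passed the filter on low values, MT1A and MT1C only through GMUCT. MT1A, MT1C and MT3 were above, where the rule was met by 19.9% of all genes, MT2B was below, as were 17.3% of all genes, and MT2A met neither side. MT4A and MT4B were under the filter. The median log2 ratio over all 20214 genes was -0.07. These placings follow from values known when the genes were chosen, and nothing is read from the counts.

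**Figure D4:**
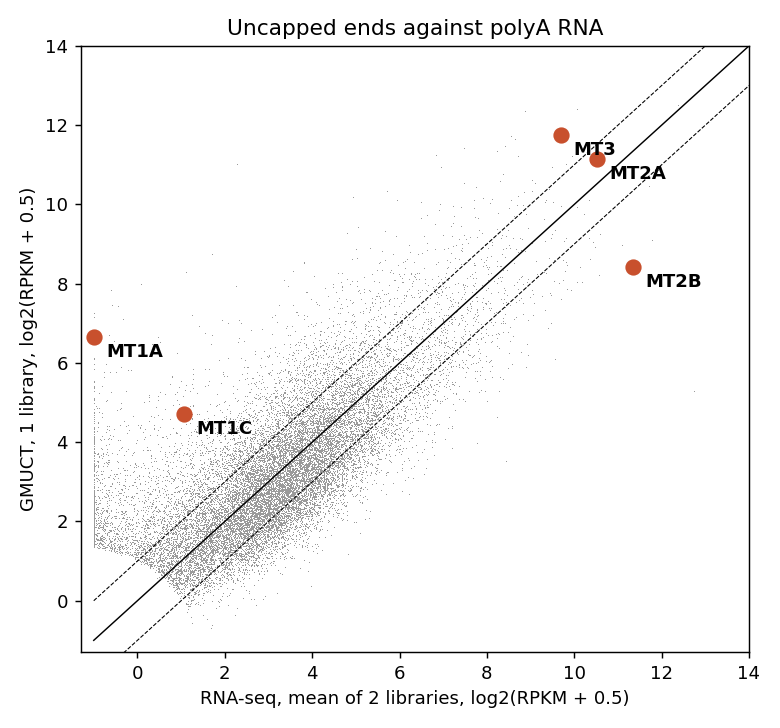
GMUCT (1 library) against the mean of the 2 RNA-seq libraries, both as log2(RPKM + 0.5), for the 20214 genes over the filter (grey) and the 5 metallothionein genes among them (red), with a solid line of equality and dashed lines at 2-fold. MT2B lies below the lower dashed line, MT2A lies between the lines, and MT3, MT1C and MT1A lie above the upper one, with MT1A at the left edge because neither RNA-seq table lists it.

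Among abundant mRNAs MT2B and MT3 were near opposite ends. Of 74 genes with at least 500 RPKM in both RNA-seq libraries, 35 (47.3%) were below and 7 (9.46%) above by the size rule, with a median log2 ratio of -1.05. Over all genes 17.3% were below and 19.9% above. The 74 were chosen by their RNA-seq values alone, which favours lower ratios, so their counts are not read against those shares. MT2B had the third lowest ratio of the 74 and MT3 the second highest, while MT2A ranked 12 from the top. The places of MT2B and MT3 restate the opposite placing known when the family was picked. The gap between assays also ran with transcript length. A smooth trend over all genes gave a fitted log2 ratio of 0.92 at the length of MT2B, 0.72 at that of MT3, 0.35 at that of MT2A and 0.91 at that of MT1C. Relative to that trend the log2 ratio was -3.85 for MT2B, 1.32 for MT3, 0.29 for MT2A and 2.73 for MT1C, so each kept its sign.

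The genes with the most similar values were found by the Euclidean distance in log2(RPKM + 0.5) over the 3 libraries. Nearest to MT2B were the lipid transfer protein gene LP1 (AT2G38540, also called LTP1; distance 0.65), with 2056.43, 2291.8 and 494.17 RPKM, and the chlorophyll-binding protein gene CAB1 (0.92). Nearest to MT3 were LHCB2.1, an antenna protein of photosystem II (0.67), with 979.79, 988.58 and 2351.45 RPKM, and PSBO1, a protein of the oxygen-evolving complex (0.78). MT2A was nearest to PSBR, a subunit of photosystem II (0.17), and DRT112, annotated in the cupredoxin superfamily (0.24). MT1C was nearest to AT2G18480 (0.18) and DOT4, annotated as a pentatricopeptide repeat protein (0.20).

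MT1B, the metallothionein gene outside the 7, resembled MT1C, with 2.03 and 1.71 RPKM by RNA-seq against 43.05 by GMUCT (log2 ratio 4.20). Its coding sequence is identical to that of MT1A at 123 of 156 aligned positions (78.8%), but the annotated frame of 51 codons holds 0 cysteine codons. In all, 108 of its 692 stretches of 50 bases (15.6%) also occur elsewhere, so its values are uncertain.

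Genes that take up, carry, chelate or export metals were compared as a list of 37, MT1B included, chosen from general knowledge. Of 32 over the filter, 7 were above and 14 below by the size rule (21.9% and 43.8%, against 19.9% and 17.3% of all genes), with a median log2 ratio of -0.51. Of the 7 above, MT1B, HMA3 and NAS4 passed the filter only through GMUCT. For HMA3 and NAS4 this set their side, so the 7 are not read against the share of all genes. The number below was 8 once the length trend was removed (14.9% of all genes), and the median was -0.03 without the filter on low values.

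Copper uptake and delivery genes lay on both sides. COPT1, a plasma membrane copper importer, had 20.34 and 23.69 RPKM by RNA-seq against 238.39 by GMUCT (log2 ratio 3.41). Here and below, values stand in the order RNA-seq 1, RNA-seq 2 and GMUCT. COPT5, a copper transporter of the vacuole, had 31.2, 29.05 and 148.02 RPKM (2.28). Both were above by the rule, as were 19.9% of all genes, and the other 2 tested COPT genes, COPT3 and COPT6, met neither side. With the length trend removed 1 of the 4 tested was below, as were 14.9% of all genes. The copper chaperones ATX1 and CCH, related proteins, were far apart. ATX1 had 32.14, 32.45 and 394.4 RPKM (3.59), and CCH had 68.43, 85.32 and 9.59 RPKM (-2.93). As with MT2A and MT2B, the less abundant mRNA of the pair in RNA-seq was the more abundant in GMUCT. AT1G53030, listed with the chaperones, was also below (5.87, 6.6 and 1.19 RPKM, -1.99). CCS, the chaperone of superoxide dismutase, had 46.8, 40.65 and 43.34 RPKM and met neither side.

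The heavy metal ATPases, which are metal pumps, lay mostly below, but not once the length trend was removed. The part of length in this was not tested. Of 8 genes 6 were below, against 17.3% of all genes, but 1 once the length trend was removed, against 14.9%. An example is HMA4, a zinc exporter that loads the xylem, with 30.91, 31.23 and 12.64 RPKM (-1.26). HMA3, a vacuolar pump, was above, but with only 0.05 and 0.03 RPKM by RNA-seq against 5.45 by GMUCT (3.46). PAA1, which brings copper into chloroplasts, met neither side. Of 3 copper-zinc superoxide dismutase genes CSD1 (208.33, 227.83 and 94.61 RPKM) and CSD3 were below, against 17.3% of all genes. CSD2 (129.18, 139.58 and 145.91 RPKM) met neither side. SPL7, the transcription factor of the copper deficiency response, had 16.28, 15.63 and 4.05 RPKM (-1.85). CSD1 and CSD3 count as below also with the length trend removed, as did 14.9% of all genes. Of 5 vacuolar and chelate transporters 3 were below, against 17.3% of all genes, and 2 met neither side. With the length trend removed 1 was below, near the 14.9% of all genes.

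**Figure D5:**
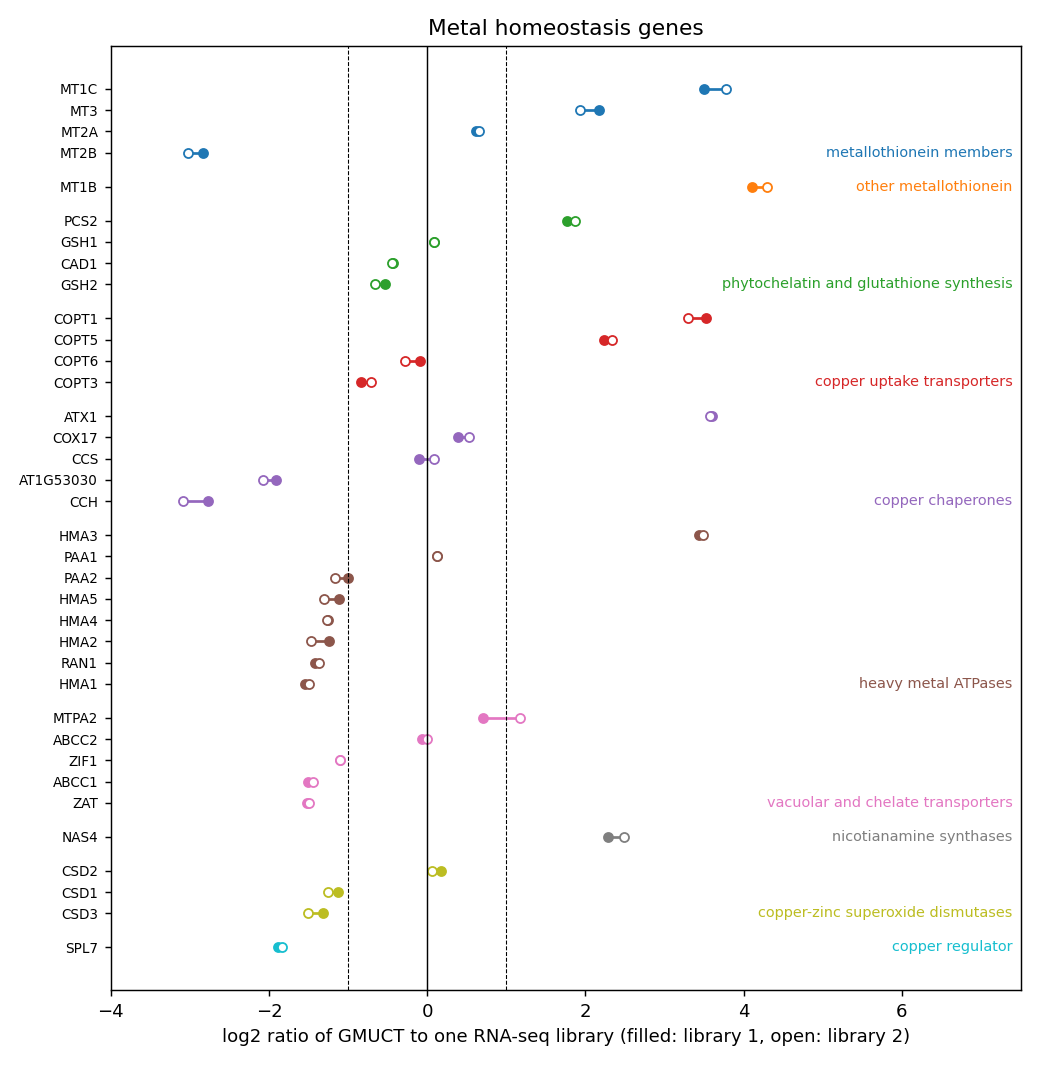
Log2 ratio of GMUCT to RNA-seq library 1 (filled) and library 2 (open) on the log2(RPKM + 0.5) scale for the metallothionein genes listed in RNA-seq and the metal homeostasis genes over the filter, grouped by role, with dashed lines at 2-fold. MT2B and MT3, COPT1 and COPT3, and ATX1 and CCH show genes of 1 group far apart, while 6 of 8 heavy metal ATPases lie left of the lower line (1 with the length trend removed, which is not drawn).

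Genes of metal chelation by peptides were mostly inside the 2-fold lines. PCS2, a phytochelatin synthase, was above, with 2.44, 2.24 and 9.51 RPKM (1.82). CAD1, the main phytochelatin synthase PCS1, had 10.4, 10.56 and 7.61 RPKM, and the glutathione synthesis genes GSH1 (40.16, 40.15 and 42.76 RPKM) and GSH2 also met neither side. The nicotianamine synthase gene NAS4 had 0.19, 0.1 and 2.88 RPKM (2.39), and NAS1, NAS2 and NAS3 were under the filter.

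Of the 4 phloem markers 1, SEOR1, a sieve element protein, was below, near the 17.3% of all genes (16.12, 16.12 and 2.15 RPKM, -2.65), and SUC2, APL and SEOa met neither side, with log2 ratios of -1.06, -0.74 and 0.22. Their summed level was 71.97, 72.49 and 37.53 RPKM. The sums of the other marker lists went both ways. Lower in GMUCT were the sums of late pollen (379.3, 391.3 and 171.0 RPKM) and of trichome and epidermis (2088, 2325 and 517.6 RPKM). In late pollen VGD1 and RALFL4 were below (2 of 4, against 17.3% of all genes). AGP6 and AGP11 met neither side, with log2 ratios of 0.41 and 0.33. LP1, which was below, held nearly all of the trichome and epidermis sum (2056.43, 2291.8 and 494.17 RPKM). GL2 (0.83) and ATML1 (-0.58) met neither side. The floral genes had 418.7, 417.9 and 354.0 RPKM (1 of 5 tested below, near the 17.3% of all genes, median log2 ratio -0.86). Higher in GMUCT were the sums of senescing leaf (6.02, 5.63 and 21.85 RPKM), maturing seed (0.31, 0.33 and 4.13 RPKM) and root (0.5, 0.24 and 2.47 RPKM). Most of the senescing leaf sum in GMUCT was SAG12 (2.02, 1.67 and 17.44 RPKM), which was above (1 of 2 tested, against 19.9% of all genes). SEN1 met neither side (log2 ratio 0.32), and SAG13, under the filter, had 0.91, 1.35 and 0.73 RPKM. The root marker PYK10 had 0.5, 0.24 and 0.34 RPKM. The part of these cell types in the values of MT2B was not tested.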

How the data were processed

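The authors deposited 1 table per library of gene identifiers and RPKM values rounded to 2 decimals. The submitters' processing notes name cutadapt 1.4.2, STAR 2.4.0 and the build TAIR10. Not given in the sources used here are the counter, annotation release, gene lengths and how strand and multiply matching reads were handled. Missing genes were taken as 0.

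Ratios were taken as log2(RPKM + 0.5), which understates those of low genes. A filter at a mean of 1 RPKM and a size rule of 2-fold against both RNA-seq libraries were used. The code of the rule was run on simulated libraries drawn around the RNA-seq values, which does not show how the rule behaves between assays. SDs are over 2 libraries. With 1 GMUCT library no test was run. Approximate reads came from the steps of low values using TAIR10.1 exon lengths. Only 37.1%, 34.9% and 36.3% of those values were whole reads to within 0.1, with 20% from chance, so no counting intervals were made. Gene models, coding sequences and symbols came from RefSeq TAIR10.1, which held 26459 of the identifiers and need not match the authors' annotation. Identity came from global alignment (Biopython 1.88).

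The genes and lists were chosen with earlier results of these data known. Named were the 7 genes, MT1B, COX17, the 3 highest and 3 lowest ratios of the metal list (MT1B, ATX1, HMA3, CCH, AT1G53030, SPL7), the 2 nearest genes of each member, overlapping genes and markers, and other metal genes named after their values were seen. Alternatives covered pseudocounts, scaling, centring, length, filters, fold thresholds and each RNA-seq library left out. Software was pandas 2.3.3, numpy 2.4.6, statsmodels 0.14.6 and Python 3.11.15.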

Additional observations from a re-analysis of the deposited data

How the results depend on the processing

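MT2B stayed negative, from -3.85 to -2.84, and MT3, MT2A and MT1C stayed positive, from 1.32 to 2.17, 0.29 to 0.71 and 2.73 to 3.92, under 7 alternatives of pseudocount, scaling, centring, length and omission of an RNA-seq library. Of the metallothionein genes 3 were above and 1 below under every alternative but the fold threshold. At 1.5-fold MT2A joined those above, making 4, and at 4-fold MT3 left them, leaving 2. Rescaling every library to the same summed RPKM shifted the log2 ratio of all genes by a median of -0.18.

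The metal list's median of -0.51 was -0.53 and -0.5 with pseudocounts of 0.1 and 1, -0.7 after rescaling, -0.44 after centring, -0.47 with the length trend removed, -0.03 without the filter and -0.84 at 5 RPKM. It lay between -0.55 and -0.48 when an RNA-seq library was left out. Its count below was 14, against 8 with the length trend removed and 1 at 4-fold. Over all genes, 4021 were above and 3501 below, against 1760 and 394 at 4-fold. At 1.5-fold 6074 were below, and at 5 RPKM 2499 were above. The cause was not tested for the median, while stricter thresholds and filters leave fewer genes by construction.

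No paired analysis was possible because GMUCT has 1 library, so the groups share fewer than 2 replicate numbers. Depth limits MT4A, MT4B and the RNA-seq values of MT1C, which rest on few reads.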

Other observations

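MT1A belongs to a small set of nested genes. Of the listed genes, 15 lay wholly inside exons of another gene on the same strand in TAIR10.1. All 15 were listed in GMUCT, as were 99.7% of all listed genes, and 3 of the 15 were in neither RNA-seq table, as were 9.77% of all listed genes. These shares are given as a description. Among 2620 genes listed in GMUCT and in neither RNA-seq table, 76 had at least 10 RPKM in GMUCT. MT1A ranked 4 among them, and it was the only 1 of the 76 wholly inside exons of another same-strand gene.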
